A study of Macaca fascicularis with 2 samples.

Results

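The genes described here are 10 chaperones and co-chaperones of the cynomolgus monkey (Macaca fascicularis) testis, chosen by symbol. They are the small heat-shock proteins HSPB1 and CRYAB, the HSP70 nucleotide exchange factor BAG3, the J-domain proteins DNAJB1, DNAJB4, DNAJB6, DNAJA1 and DNAJA4, and the mitochondrial chaperonin HSPD1 with its partner HSPE1. Of the 28845 features of the count matrices, 9 carry the symbol of a member. HSPE1 was not analysed here, because no feature matched it by symbol or gene ID. Both libraries are droplet single-cell RNA libraries that count the 3′ ends of transcripts with molecular identifiers (UMIs). UAT came from testis in the abdomen, a surgical model of unilateral cryptorchidism, and CST from the contralateral testis in the scrotum. Each position had 1 library, the tissue of both was dissociated with enzymes at 37 °C for at most 30 min, and the number, age and strain of the animals are not given in the sources used here. With 1 library per position there is no replicate check, position cannot be told apart from library, and no test across samples was possible.

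Chaperones of these families keep proteins soluble and foldable. Small heat-shock proteins hold unfolding proteins in oligomers, J-domain proteins hand clients to HSP70 and start its ATPase cycle, and BAG3 releases clients from HSP70 and links it to small heat-shock proteins and to selective autophagy. HSPD1 (HSP60) and HSPE1 (HSP10) form the folding chamber of the mitochondrial matrix. The scrotum keeps the testis cooler than the abdomen, and many genes of these families are induced by heat in other mammalian cells.

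The UAT library held 12564 barcodes with 111047299 UMIs and the CST library 15952 barcodes with 197225937 UMIs, and 50 barcode sequences occurred in both. After filtering, 11131 UAT and 13201 CST cells were clustered together, and clusters were called "like" a cell type from marker genes. Levels are UMIs of the gene scaled to the UMI total of its class (counts per 1000000, CPM), ratios are UAT over CST, and the brackets hold 95% intervals. These intervals cover counting error only. A member counts as higher or lower when its ratio is at least 1.5 or its inverse, and as measured when it reaches 20 CPM in either library. A member that reached this level only in the library where it was high had to differ, so the counts of members are descriptions. There were 9 classes with at least 50 cells in both libraries.

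The libraries differed in ways that touch every ratio given here. In the 9 classes, transcripts of the protamine gene PRM1, made in spermatids, stood between 1313 and 5632 CPM in CST and at no more than 1.41 CPM in UAT. The share of a class's UMIs estimated to be free RNA, that is RNA released from other cells into the droplets, ran from 4.63% to 23.5% in CST and from 3.03% to 7.19% in UAT. The median UMIs per cell were higher in UAT in 9 of 9 classes. The summed level of 19 immediate early genes known to respond to tissue dissociation was also higher in UAT in 9 of 9 classes, between 1354 and 32905 CPM in UAT and between 846 and 26240 CPM in CST. The median share of mitochondrial UMIs per cell was higher in UAT in 9 of 9 classes too, between 4.23% and 6.75% in UAT and between 1.31% and 4.55% in CST. The part of depth, of the immediate early genes and of the mitochondrial share in the results was not tested.

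Along the germ line of the scrotal testis, the 9 chaperones followed different courses, and the mitochondrial chaperonin was nearly lost before the end of meiosis. HSPD1 stood at 195 CPM (181 to 209) in undifferentiated spermatogonia-like cells, 184 CPM (172 to 197) in differentiating spermatogonia-like cells and 98.6 CPM (84.8 to 114) in early spermatocyte-like cells. It was at 2.07 CPM (1.67 to 2.53) in late spermatocyte-like cells, 1.14 CPM (0.855 to 1.501) in round and 0.525 CPM (0.325 to 0.803) in elongating spermatid-like cells. The highest and lowest stages therefore differed 371-fold, and the 3 late stages lay below every somatic class of CST. The last value rests on 21 UMIs, and free RNA alone was estimated to give 0.257 CPM there. In the 3 clusters of late spermatocyte-like cells, HSPD1 lay between 1.73 and 2.62 CPM, so the low level was shared by the clusters led by SPATA8, by H1-6 and by AURKA.

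**Figure D1:**
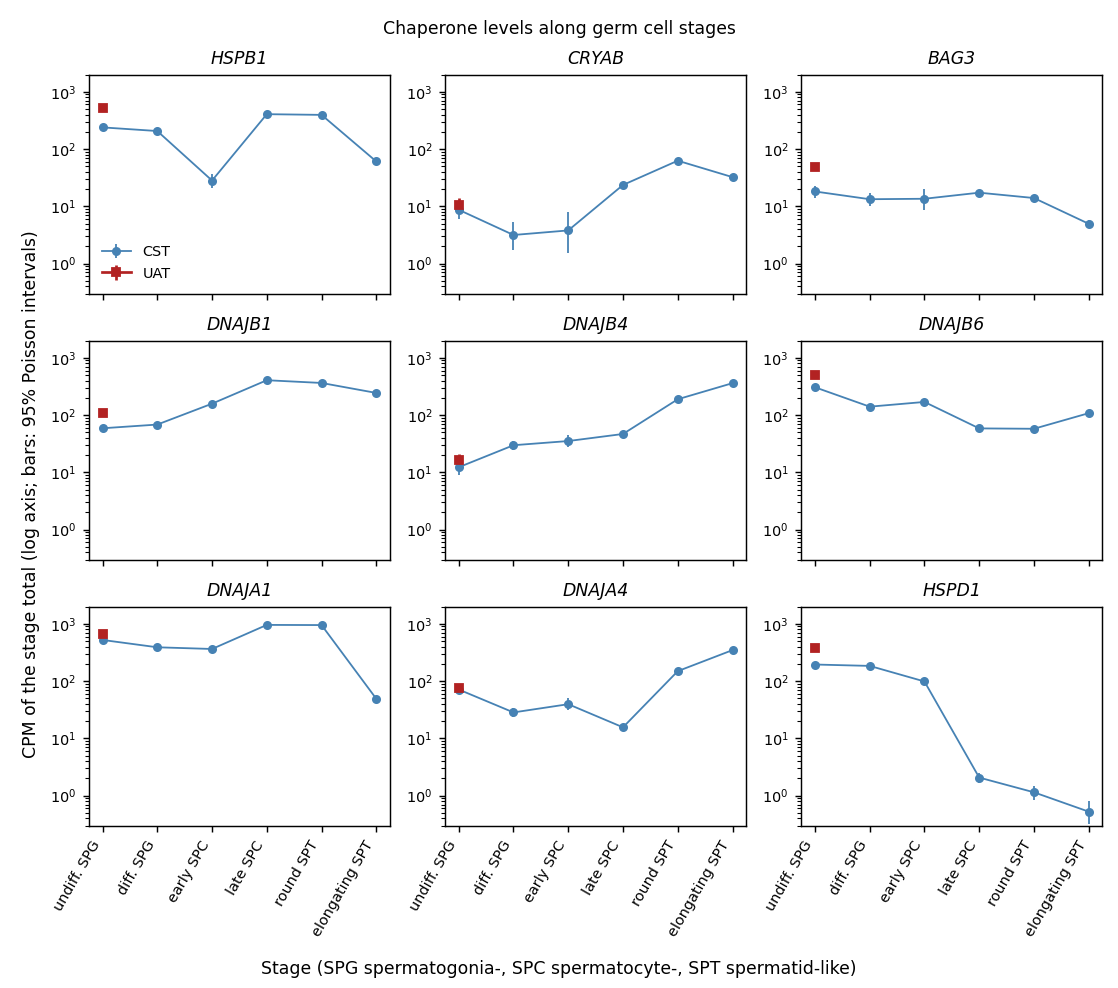
Levels of the 9 chaperones (CPM, log axis) in 6 germ cell classes of the CST library (blue circles) and in the undifferentiated spermatogonia-like cells of the UAT library (red squares), with 95% Poisson intervals. HSPD1 is at 98.6 CPM in early and 2.07 CPM in late spermatocyte-like cells, whereas DNAJA4 and DNAJB4 are highest in elongating spermatid-like cells.

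HSPB1, the small heat-shock protein that also binds actin and intermediate filaments, was low in early spermatocyte-like cells and high on both sides of them. Its level was 239 CPM (224 to 255) in undifferentiated and 206 CPM (193 to 220) in differentiating spermatogonia-like cells, and 28.2 CPM (21.0 to 36.9) in early spermatocyte-like cells. In late spermatocyte-like cells it was 406 CPM (400.3 to 412), which is 14.4 times (11.0 to 19.3) the early level. Round spermatid-like cells held 395 CPM (389 to 401) and elongating ones 60.6 CPM (58.2 to 63.1). The late spermatocyte-like clusters differed among themselves, with 70.8 CPM in the cluster led by SPATA8, 203 CPM in the shallow cluster led by H1-6 and 652 CPM in the cluster led by AURKA and CCNA1, genes of the meiotic divisions. CRYAB, a small heat-shock protein best known from lens and muscle, was at 3.16 CPM in differentiating spermatogonia-like cells and peaked at 62.6 CPM (60.3 to 64.9) in round spermatid-like cells.

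DNAJA1, a major cytosolic J-domain partner of HSP70, had its highest levels in late meiosis and early spermiogenesis. It stood at 364 CPM (337 to 393) in early spermatocyte-like cells, 958 CPM (949 to 967) in late spermatocyte-like cells, 952 CPM (943 to 961) in round and 49.1 CPM (46.9 to 51.3) in elongating spermatid-like cells. The step from round to elongating cells was a ratio of 0.0516 (0.0492 to 0.0539). Within round spermatid-like cells the cluster led by H1-8 held 1089 CPM and the cluster led by CRLS1 held 688 CPM. DNAJB1, the heat-inducible J-domain protein that works with HSP70 in disaggregation, was at 58.8 CPM (51.5 to 66.9) in undifferentiated spermatogonia-like cells, 158 CPM (141 to 177) in early and 406 CPM (400.3 to 412) in late spermatocyte-like cells. It stayed at 244 CPM (239 to 248) in elongating spermatid-like cells, where DNAJA1 was low.

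DNAJA4 and DNAJB4, J-domain proteins of the cytosol, were highest in elongating spermatid-like cells. DNAJA4 was at 15.6 CPM (14.5 to 16.8) in late spermatocyte-like cells, 149 CPM (146 to 153) in round and 348 CPM (342 to 354) in elongating spermatid-like cells. DNAJB4 was at 46.8 CPM (44.8 to 48.8), 189 CPM (185 to 193) and 361 CPM (355 to 367) in the same 3 classes. The elongating level was reached although elongating spermatid markers such as the protamines summed to 355678 CPM there. DNAJB6, which suppresses aggregation of client proteins, was highest in undifferentiated spermatogonia-like cells, at 306 CPM (289 to 324), against 57.7 CPM (55.5 to 59.9) in round and 108 CPM (105 to 111) in elongating spermatid-like cells. BAG3 was low throughout, from 18.2 CPM (14.2 to 22.9) in undifferentiated spermatogonia-like cells to 4.95 CPM (4.29 to 5.69) in elongating spermatid-like cells.

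Related genes from lists chosen with these data known had their own stage patterns. Shares of all genes highest in each stage are not given here, so the stage counts describe the lists alone. Of 11 measured DNAJA and DNAJB genes outside the members, 4 were highest in early and 2 in late spermatocyte-like cells. Another 2 were highest in elongating spermatid-like cells, where DNAJB8 reached 1588 CPM and DNAJB7 232 CPM. Undifferentiated and differentiating spermatogonia-like and round spermatid-like cells had 1 each. DNAJC5B, of the cysteine-string protein group, was at 30.9 CPM in late spermatocyte-like cells and at 672 and 817 CPM in round and elongating spermatid-like cells. HSPB9, a small heat-shock protein known from human and mouse testis, had 24.4 CPM in early and 538 CPM in late spermatocyte-like cells. The co-chaperones BAG1 and BAG5 were highest in elongating spermatid-like cells, at 835 and 942 CPM. Among 13 mitochondrial chaperones and proteases, 2 were highest in undifferentiated and 4 in differentiating spermatogonia-like cells. Early spermatocyte-like cells had 2, late ones 3, and round and elongating spermatid-like cells 1 each. HSPA9, the mitochondrial HSP70, was at 372 CPM in differentiating spermatogonia-like and 33.5 CPM in late spermatocyte-like cells. Its exchange factor GRPEL1 was at 78.2 and 13.2 CPM and the matrix protease LONP1 at 53.2 and 4.14 CPM in the same classes. GRPEL2 was at 39.0 CPM in early and 86.7 CPM in late spermatocyte-like cells, HTRA2 at 60.1 and 70.3 CPM and TIMM44 at 10.3 and 23.2 CPM. CLPB, a disaggregase of the intermembrane space, had 24.9 CPM in late spermatocyte-like and 568 CPM in elongating spermatid-like cells.

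In somatic cells the members marked different classes. The order of HSPB1 in UAT was led by peritubular myoid-like cells, which wrap the seminiferous tubules and contract, at 1286 CPM (1265 to 1307). Lymphatic endothelial-like cells at 951 CPM and mural-like cells (scored on markers of pericytes and vascular smooth muscle) at 936 CPM followed, and these 2 neighbours did not differ beyond counting error. Stromal-like cells held 653 CPM, Leydig-like cells 605 CPM, Sertoli-like cells 64.6 CPM and T or NK-like cells 36.8 CPM. In CST, peritubular myoid-like cells also led, at 1016 CPM (975 to 1057), while endothelial-like cells held 430 CPM, stromal-like cells 341 CPM, mural-like cells 222 CPM and T or NK-like cells 99.7 CPM.

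CRYAB and HSPD1 were highest elsewhere. CRYAB was at 313 CPM (303 to 324) in Sertoli-like cells, which nourish the germ cells, and at 109 CPM (105 to 114) in the cluster led by COL6A3 and CILP, a connective tissue-like cluster that the marker rules left unnamed. Endothelial-like cells held 5.72 CPM of CRYAB and macrophage-like cells 7.82 CPM. HSPD1 in UAT was highest in Leydig-like cells, the steroid-making cells, at 597 CPM (573 to 621). Mast-like cells at 391 CPM, undifferentiated spermatogonia-like cells at 379 CPM and Sertoli-like cells at 351 CPM followed, and mast-like cells and spermatogonia-like cells did not differ beyond counting error. B or plasma-like cells held the lowest level of HSPD1 in UAT, 64.9 CPM (54.9 to 76.3). CST held 8 Leydig-like cells, so Leydig-like cells were not compared between positions.

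**Figure D2:**
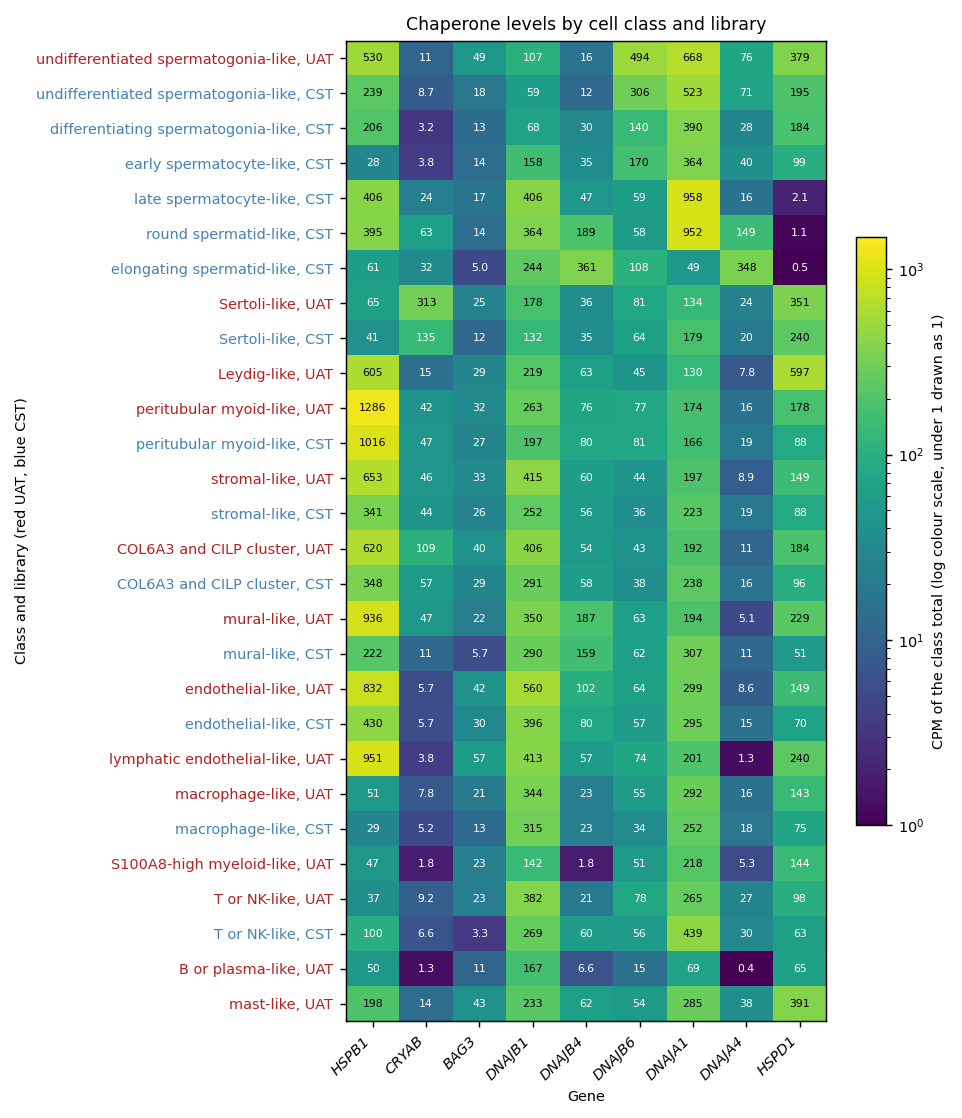
Levels of the 9 chaperones (CPM, log colour scale, values printed in the cells) in the 28 combinations of class and library with at least 50 cells, with UAT rows labelled in red and CST rows in blue. HSPB1 is highest in peritubular myoid-like cells, CRYAB in Sertoli-like cells, HSPD1 in Leydig-like cells of UAT, and DNAJA1 in late spermatocyte-like and round spermatid-like cells of CST.

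The germ cells that remained in number in the abdominal testis were undifferentiated spermatogonia-like, with 277 cells in UAT and 564 in CST. In them 5 of 7 measured members were higher in UAT and none was lower, where 7.12% of 8368 genes were higher and 11.6% lower. HSPB1 stood at 530 CPM (508 to 554) in UAT and 239 CPM (224 to 255) in CST, a ratio of 2.22 (2.06 to 2.40). BAG3 stood at 48.9 CPM (42.3 to 56.3) and 18.2 CPM (14.2 to 22.9), a ratio of 2.69 (2.04 to 3.59), and reached the minimum of 20 CPM only in UAT. HSPD1 stood at 379 CPM (360.5 to 399) and 195 CPM (181 to 209), a ratio of 1.95 (1.78 to 2.13). For each of the 3 genes the intervals of the levels did not overlap, and the ratio stayed above 1.5 under each of 13 other ways of processing that can move it.

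DNAJB1 was at 107 CPM (96.7 to 117) in UAT and 58.8 CPM (51.5 to 66.9) in CST, which gives 1.81 (1.54 to 2.14), and 1.27 after each cell was thinned to 1000 UMIs. DNAJB6 was at 494 CPM (472 to 516) and 306 CPM (289 to 324), a ratio of 1.61 (1.5 to 1.73), which was 1.49 after the same thinning. DNAJA1 was closer, with a ratio of 1.28 (1.20 to 1.35), and for DNAJA4 the interval of the ratio held 1, at 1.06 (0.896 to 1.25), and after thinning the ratio was 1.53. The members were therefore not higher by one common factor in these cells. Of 11 measured HSP70 and HSP90 system genes, 6 were higher and none lower, beside 7.12% and 11.6% of all genes. The 6 included the HSP90 co-chaperones FKBP4 with a ratio of 2.44 and AHSA1 with 2.22. Other genes of the members' own families were mostly not higher. None of 8 other DNAJA and DNAJB genes was higher and 1 was lower. Of 24 DNAJC genes 1 was higher and 4 lower, and of 2 other small heat-shock proteins none was higher and 1 lower. In the list of other BAG co-chaperones and HSP70 exchange factors, 3 of 12 were higher and none lower. Among these were HSPH1, which is on both lists, and BAG2, with ratios of 1.77 and 1.82. None of 14 measured genes of the cytosolic chaperonin list and none of 4 heat-shock factors and regulators reached 1.5-fold, HSF1 having a ratio of 1.21 and HSF2 one of 1.09. Beside these values, the median depth was 6995 UMIs in UAT and 2738 in CST. Higher in UAT were 8 of 16 immediate early genes, beside 7.12% of genes. The cold-inducible RBM3, CIRBP and SRSF5 were all lower, beside 11.6% of genes.

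**Figure D3:**
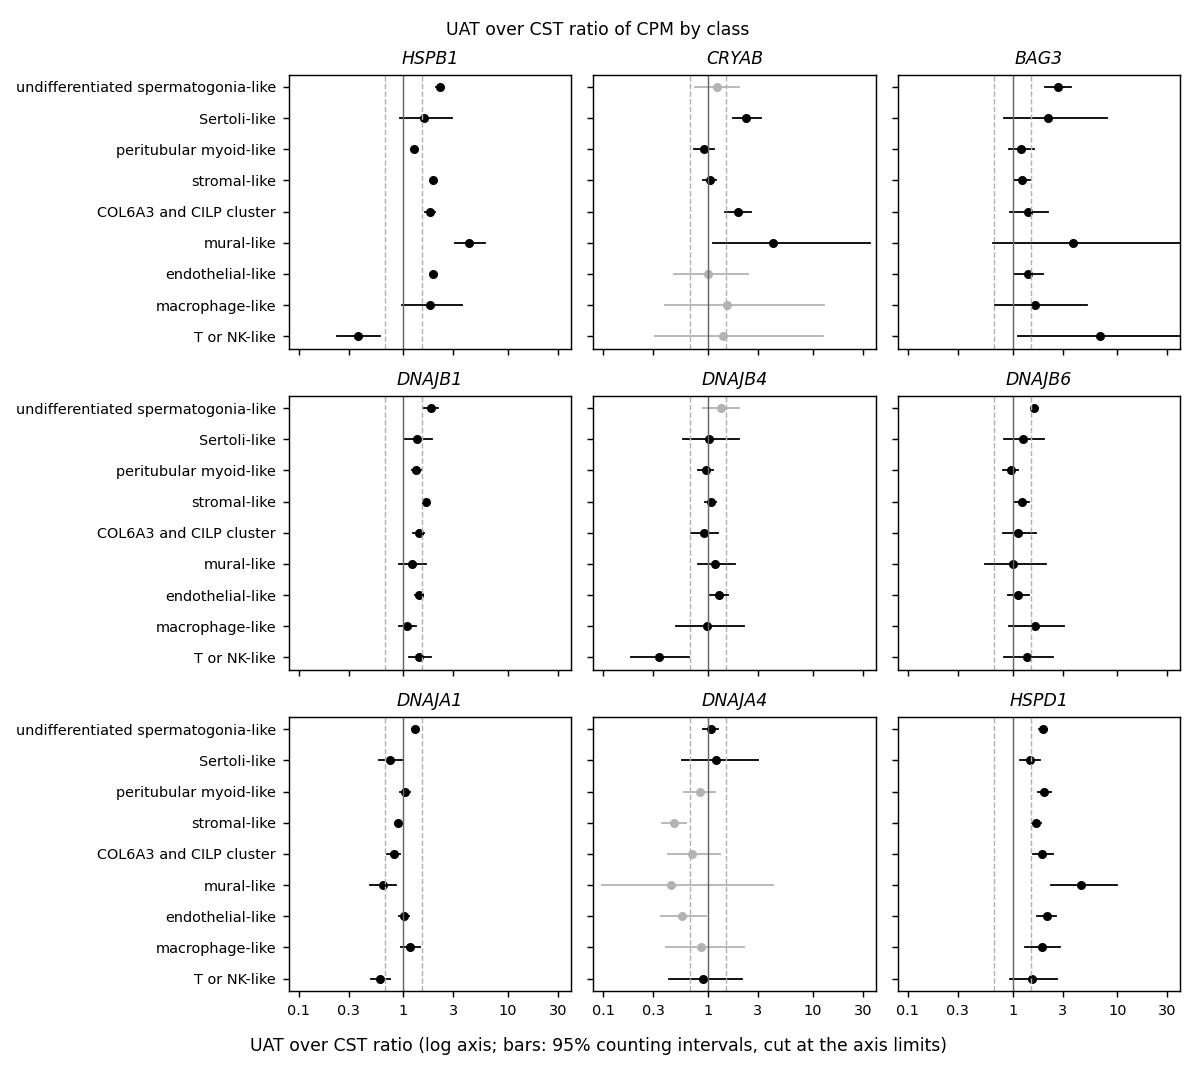
Ratio of UAT to CST levels (log axis) of the 9 chaperones in 9 classes, with 95% counting intervals that end at the axis limits, solid lines at 1 and dashed lines at 1.5 and its inverse. Grey points did not reach 20 CPM in either library. HSPD1 is to the right of 1 in 9 of 9 classes, and HSPB1 in 8, with T or NK-like cells at 0.369.

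HSPD1 was the member whose higher level in UAT recurred most across classes. Its ratio was above 1 in 9 of 9 classes and at least 1.5 in 8, and the interval lay above 1 in 8. In peritubular myoid-like cells it stood at 178 CPM (170 to 186) in UAT and 88.2 CPM (76.6 to 101) in CST, a ratio of 2.01 (1.75 to 2.33). In endothelial-like cells it stood at 149 CPM (142 to 156) and 70.4 CPM (57.1 to 85.8), a ratio of 2.11 (1.72 to 2.62). In stromal-like cells the ratio was 1.69 (1.54 to 1.85), in the COL6A3 and CILP cluster 1.92 (1.55 to 2.42) and in macrophage-like cells 1.89 (1.31 to 2.85). The largest value, 4.48 (2.34 to 9.86) in mural-like cells, rests on 9 UMIs in CST. The interval held 1 in T or NK-like cells, at 1.55 (0.953 to 2.65).

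The free RNA of the CST library held little HSPD1, and in endothelial-like cells it was estimated to give 2.04 of the 70.4 CPM. With the estimated free RNA of each library taken out, the HSPD1 ratio was lower in all 9 classes and ran from 1.27 in T or NK-like cells to 3.94 in mural-like cells. It then reached 1.5 in 7 of 9 classes, and it was 1.91 in peritubular myoid-like, 1.94 in endothelial-like and 1.55 in stromal-like cells. Of the other mitochondrial chaperones and proteases, none of 12 measured in undifferentiated spermatogonia-like cells was 1.5-fold higher in UAT, beside 7.12% of genes. None of 13 was higher in Sertoli-like cells, beside 17.8%, and none of 12 in endothelial-like cells, beside 7.47%. The list had 1 of 11 higher in peritubular myoid-like cells, beside 7.64% of genes, and 1 of 10 in stromal-like cells, beside 6.15%. It had 3 of 11 higher in the COL6A3 and CILP cluster, where 5.54% of genes were. It had 3 of 12 higher in mural-like cells beside 18.4% of genes, 2 of 11 in macrophage-like and 2 of 9 in T or NK-like cells, each beside 17.5%. The number lower in UAT ran from 1 of 12 in undifferentiated spermatogonia-like cells, beside 11.6% of genes, to 4 of 13 in Sertoli-like cells, beside 29.2%. In endothelial-like cells these genes had a median log2 ratio of -0.09, beside -0.03 over all genes, and in peritubular myoid-like cells -0.01 beside -0.07. Their median was highest in mural-like cells, at 0.18 beside -0.20, and lowest in T or NK-like cells, at -0.28 beside -0.03.

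HSPB1 was at least 1.5-fold higher in UAT in 7 of 9 classes. In endothelial-like cells it stood at 832 CPM (816 to 849) in UAT and 430 CPM (396 to 466) in CST, a ratio of 1.93 (1.78 to 2.10). In stromal-like cells it stood at 653 CPM (640 to 666) and 341 CPM (327 to 356), a ratio of 1.91 (1.83 to 2.00). The COL6A3 and CILP cluster had 1.78 (1.59 to 2.00), and mural-like cells, with 39 UMIs of the gene in CST, had 4.22 (3.08 to 5.96). These classes did not share one factor: the mural ratio was larger than the spermatogonial one beyond counting error, the second divided by the first being 0.526 (0.380 to 0.729). Peritubular myoid-like cells, where HSPB1 was highest, had the smaller ratio of 1.27 (1.21 to 1.32). In that class 1506 of 1507 UAT cells fell in one cluster and 370 of 392 CST cells in another, and within the UAT-rich cluster, which held 22 CST cells, the ratio was 1.64. In Sertoli-like and macrophage-like cells HSPB1 in CST, at 41.0 and 28.6 CPM, lay below the 43.3 and 30.4 CPM that free RNA was estimated to give, so the ratios of 1.58 (0.933 to 2.90) and 1.78 (0.978 to 3.63) describe no level above free RNA in CST.

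**Figure D4:**
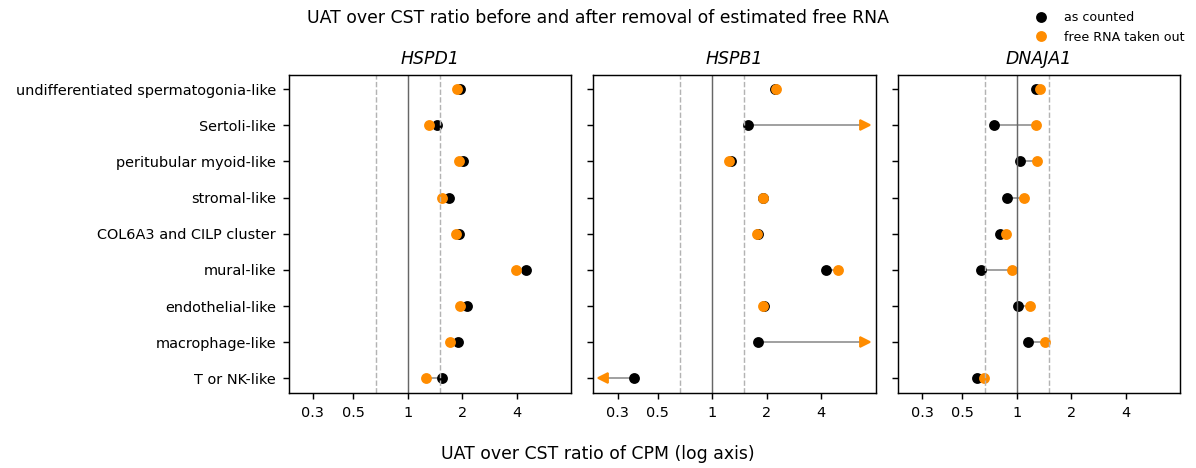
Ratio of UAT to CST levels (log axis) of HSPD1, HSPB1 and DNAJA1 in 9 classes as counted (black) and with the estimated free RNA of each library taken out (orange), where arrows mark values beyond the axis because 1 library was left with no HSPB1. HSPD1 moves to the left in each class and DNAJA1 to the right, passing 1 in Sertoli-like and stromal-like cells.

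The ratio of DNAJA1 was above 1 in 4 of 9 classes as counted and in 6 of 9 with free RNA taken out. As counted, the gene was not 1.5-fold higher in UAT in any of the 9 classes, and its interval lay below 1 in 5. The ratio was 0.633 (0.476 to 0.857) in mural-like cells, 0.603 (0.493 to 0.741) in T or NK-like cells and 0.750 (0.580 to 0.985) in Sertoli-like cells. DNAJA1 is abundant in the round spermatids of CST, and free RNA was estimated to give 143 of its 307 CPM in the mural-like cells of CST and 89.8 of 179 CPM in the Sertoli-like cells. With free RNA taken out, the ratio was 0.941 and 1.27 in these classes and 1.10 in stromal-like cells, in place of 0.884 (0.829 to 0.942). The direction in Sertoli-like and stromal-like cells thus turned, and in T or NK-like cells the ratio was 0.661, the 1 lower value past the size rule that remained of 2. With a minimum of 1000 genes per cell it was 0.681, within the size rule. DNAJA4, high in spermatid-like cells, showed the same limit. Its level in the endothelial-like cells of CST, 15.1 CPM, was near the 14.9 CPM expected from free RNA.

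DNAJB1 was higher in UAT by a modest factor in most classes. Its ratio was above 1 in 9 of 9 classes, from 1.09 (0.908 to 1.33) in macrophage-like to 1.81 (1.54 to 2.14) in undifferentiated spermatogonia-like cells. The interval lay above 1 in 7. As the mean over cells, the ratio was 0.708 in Sertoli-like cells. Without cells with over 0.5% spermatid marker UMIs, it was 0.951 in macrophage-like cells. In the other classes it stayed above 1 under each alternative. Stromal-like cells had 415 CPM (404 to 425) in UAT and 252 CPM (240 to 265) in CST, a ratio of 1.65 (1.56 to 1.74) that was 1.48 with a minimum of 1000 genes per cell. Among 18 measured immediate early genes, 6 were higher in UAT in stromal-like cells and none lower, beside 6.15% and 18.8% of all genes. The part of immediate early genes in the DNAJB1 ratio was not tested. BAG3 was also above 1 in 9 of 9 classes, but its interval lay above 1 in 4. Its largest ratios, 6.81 (1.14 to 277) in T or NK-like and 3.80 (0.649 to 153) in mural-like cells, each rest on 1 UMI in CST. In the 5 classes where BAG3 reached 1.5, its CST level was between 3.32 and 18.2 CPM. It was thus measured there only through its UAT level, and its place in the member counts of these classes is a description. DNAJB6 reached 1.5 in macrophage-like cells, at 1.63 (0.933 to 3.10), beside the spermatogonial value.

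CRYAB was highest in Sertoli-like cells, where it stood at 313 CPM (303 to 324) in UAT and 135 CPM (98.6 to 180) in CST, a ratio of 2.33 (1.74 to 3.18). The CST value rests on 46 UMIs in 71 cells, of which 5 cells held 39.1%, and after thinning to 1000 UMIs the ratio was 0.893. In the COL6A3 and CILP cluster CRYAB stood at 109 CPM (105 to 114) and 57.1 CPM (42.4 to 75.3), a ratio of 1.91 (1.45 to 2.59). In stromal-like and peritubular myoid-like cells its interval held 1, at 1.04 (0.901 to 1.20) and 0.910 (0.738 to 1.13). The stromal value depended on the clustering and the cell filter, and it was 1.66 with a minimum of 200 genes, 1.76 without doublet removal, 1.84 with a per-cell marker gate, 1.86 with each library clustered alone and 1.88 at Leiden resolution 0.5. The ratio of 4.16 (1.12 to 34.8) in mural-like cells rests on 2 UMIs in CST.

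By class, the shares of members past 1.5-fold stood as follows beside those of all measured genes. In Sertoli-like cells 3 of 9 members were higher and none lower, where 17.8% of genes were higher and 29.2% lower. For HSPB1 and BAG3 the interval held 1, and BAG3, at 2.16 (0.833 to 7.97), rests on 4 UMIs in CST. The ratio of CRYAB was 0.893 after thinning to 1000 UMIs. All 18 measured immediate early genes and all 13 mitochondrially encoded transcripts were higher in UAT in this class, whose CST cells had a median of 1598 UMIs. In stromal-like cells 3 of 8 were higher, where 6.15% of genes were higher and 18.8% lower, and 1438 of the 1559 CST cells lay in a cluster with 12 UAT cells. In the COL6A3 and CILP cluster, with 2803 UAT and 161 CST cells, 3 of 8 were higher beside 5.54% of genes, and none was lower beside 14.6%.

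In peritubular myoid-like cells 1 of 8 members, HSPD1, was higher, where 7.64% of genes were higher and 15.7% lower. In endothelial-like cells 2 of 7 were higher, HSPB1 and HSPD1, beside 7.47% of genes higher and 15.5% lower. The 2 classes with 93 and 90 CST cells had wide backgrounds. In mural-like cells 4 of 8 members were higher and 1 lower, where 18.4% and 35.6% of genes were. In macrophage-like cells 4 of 7 were higher and none lower, where 17.5% and 18.9% were, and for 3 of the 4 the interval held 1.

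In T or NK-like cells 2 of 8 members were higher and 3 lower, where 17.5% of genes were higher and 27.0% lower. HSPB1 stood at 36.8 CPM (27.5 to 48.2) in UAT and 99.7 CPM (67.3 to 142) in CST, a ratio of 0.369 (0.231 to 0.599). The UAT level was below the 45.8 CPM that free RNA was estimated to give, the CST level above its 43.2 CPM. Without doublet removal the ratio was 1.88. DNAJB4 was at 20.5 CPM (13.7 to 29.5) and 59.8 CPM (35.4 to 94.5), a ratio of 0.343 (0.184 to 0.656), with 25.3 CPM expected from free RNA in CST. DNAJA1 was at 264 CPM (238 to 293) and 439 CPM (367 to 520). The 142 CST cells of this class had 14577 CPM of elongating spermatid markers, the highest of the 9 CST classes, beside 28.3 CPM in UAT.

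Across the 28 combinations of class and library, the members had few profiles in common. On log2(CPM + 10) values, which share libraries and depth, the highest Pearson r between members was 0.59 for HSPB1 and BAG3, and HSPD1 and BAG3 had 0.56. DNAJB1 and DNAJB6 had -0.56. Among 10160 genes the profile most like HSPD1 was that of MOB4 (r = 0.92), followed by ATP5G2, a subunit of the mitochondrial ATP synthase, and C1QBP, a protein of the mitochondrial matrix. In the RefSeq table HSPE1 lies between HSPD1 and MOB4, and whether reads of HSPE1 were counted at the MOB4 feature was not tested. MOB4 was at 358 CPM in early and 36.7 CPM in late spermatocyte-like cells. The 3 profiles nearest to DNAJB1 included that of IER5, an immediate early gene (r = 0.68). DNAJA1 was nearest to CCNH (r = 0.91), DNAJA4 to CCDC91 (r = 0.89), DNAJB6 to ALKBH5 (r = 0.89), CRYAB to KIF5C (r = 0.87), HSPB1 to PLPP1 (r = 0.85), DNAJB4 to AKAP1 (r = 0.82) and BAG3 to ZNF521 (r = 0.76). Several chaperone genes, HSPD1 among them, have processed copies in primate genomes, and counts of these genes are uncertain where reads matched a copy.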

How the data were processed

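Single-cell RNA was measured in 2 libraries of testis tissue, 1 per position. The deposited values are whole-number UMI counts per feature and barcode, not normalised; Cell Ranger 5.0.0 is named in the matrix headers, but version 3.0.1 and the mouse build mm10 in the submitters' processing notes. Because features carry macaque symbols, coordinates are not given. Of 11526 features with a LOC name, 721 received a symbol by gene ID from a RefSeq table of the species. No sequence or promoter was used here.

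Barcodes with at least 500 genes were kept. The highest simulated-doublet scores were removed at 0.8% per 1000 barcodes, 1221 cells in UAT and 1800 in CST. Variable genes were ranked with scanpy 1.11.5. Cells were clustered jointly with leidenalg 0.10.2 on 2000 variable genes without chaperones, using 40 components, 15 neighbours and Leiden resolution 1. Clusters were named from marker lists. Unnamed clusters were left out, apart from the large cluster led by COL6A3 and CILP. Free RNA was estimated per class from markers of other lineages. Its profile was the sum over the library's deposited barcodes, not over empty droplets. Counts were summed per class. Intervals of ratios are exact and conditional on the summed count, and 10 CPM were added before log2. The interval step was tried on simulated counts for the stromal-like and mural-like classes. These counts held counting error alone and no spread between cells, so they could not show how the intervals hold in the real data.

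The members, lists and markers were chosen with earlier results of these data known. All 9 members with a value are named, and from each list up to 4 genes with the largest log2 ratio in a class. Genes named for their course over germ stages, HSF1 and HSF2 among them, were chosen after their values were seen.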

Additional observations from a re-analysis of the deposited data

Results flagged for a closer look

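HSPB1 was higher in UAT in mural-like cells, with a ratio of 4.22 (3.08 to 5.96), and lower in UAT in T or NK-like cells, with a ratio of 0.369 (0.231 to 0.599). These opposite directions under the same contrast drew attention. The ratio of the 2 ratios was 11.4 (6.60 to 19.8) by counting error, but with 1 library per position the difference was not tested across samples. In T or NK-like cells the UAT level, 36.8 CPM, was below the 45.8 CPM estimated from free RNA, and without doublet removal the ratio was 1.88.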

How the results depend on the processing

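Between 71 and 142 CST cells stand behind the Sertoli-like, mural-like, macrophage-like and T or NK-like values. No paired analysis was possible because each position has 1 library. Of 871 ratios of single members under alternatives that can move a ratio, 767 stayed inside the counting interval of the reported ratio and 104 did not. Among the 381 whose reported ratio was past 1.5-fold, 4 changed direction, and among the 490 nearer to 1, 62 changed side of 1. Those 4 were HSPB1 in Sertoli-like cells (0.866 as the mean over cells), CRYAB in Sertoli-like cells (0.893 after thinning to 1000 UMIs), BAG3 in mural-like cells (0.924 with each library clustered alone) and HSPB1 in T or NK-like cells (1.88 without doublet removal). The cause was not tested. With a per-cell marker gate in place of clusters, 94.4% of 17222 cells kept their class. Scaling by the median gene moved no class by more than 0.1 on the log2 scale. The undifferentiated spermatogonia-like and Sertoli-like classes could not be compared with each library clustered alone, nor the first at Leiden resolution 0.5, nor the COL6A3 and CILP cluster after any new clustering.

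The number of members past the size rule moved as follows, and the shares of all genes under these settings are not given here. With a 2-fold rule, 2 members were higher in undifferentiated spermatogonia-like cells, 0 in stromal-like cells, 0 in the COL6A3 and CILP cluster, 1 in endothelial-like, 0 in macrophage-like cells and 1 in the T or NK-like class, and 0 were lower in mural-like cells. A minimum of 100 CPM also cut the number of members measured. Under it, 1 of 4 was higher in Sertoli-like, 2 of 5 in mural-like and 1 of 3 in macrophage-like cells. In the T or NK-like class 0 of 2 were higher and 1 was lower. With no minimum level, 1 was lower in stromal-like, 2 in mural-like and 1 in endothelial-like cells. After thinning to 1000 UMIs, 3 were lower in Sertoli-like, 1 in stromal-like, 1 in endothelial-like, 2 in macrophage-like and 0 in mural-like cells and 1 in the COL6A3 and CILP cluster, and 2 were higher in peritubular myoid-like, 2 in macrophage-like cells and 1 in the T or NK-like class. Without the 5 highest cells, 8 were higher in Sertoli-like cells, 5 in the COL6A3 and CILP cluster and 4 in T or NK-like cells, and 0 were lower in mural-like cells. In these classes 5 cells are a larger share of CST than of UAT, as with 71 CST and 802 UAT Sertoli-like cells. Leaving them out therefore tends by itself to raise the ratio, so these counts say little about how firm the ratios are. With free RNA taken out, 6 were higher in Sertoli-like and 0 lower in mural-like cells. Without cells over 10% mitochondrial UMIs, 5 were higher and 1 lower in Sertoli-like cells. As the mean over cells, 1 was lower in Sertoli-like and 1 in macrophage-like cells. Without doublet removal, 2 were lower in Sertoli-like and 0 in mural-like cells. With a minimum of 200 genes, 1 was lower in Sertoli-like cells, and with 1000 genes, 0 were lower in mural-like cells and the T or NK-like class had 1 higher. With the marker gate, the same classes had 0 lower and 1 higher. Scaling by the median gene left 0 lower in mural-like cells, and clustering each library alone left 2 higher there. Of alternatives chosen after seeing the data, the UAT-rich clusters alone gave 3 higher in peritubular myoid-like and 5 in stromal-like cells, and leaving out cells with over 0.5% spermatid marker UMIs gave 2 higher in macrophage-like cells. Pooling all spermatogonia-like cells, also chosen after seeing the data, raised the DNAJB6 ratio from 1.61 to 2.19 and took the DNAJA4 ratio from 1.06 past 1.5. The pool added 318 differentiating spermatogonia-like cells in CST and 9 in UAT, so it compares unlike mixtures.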

Other observations

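Germ cell genes of the chaperone families were also counted at low level outside their stages in the CST library. DNAJB8, which was at 1588 CPM in elongating spermatid-like cells, was at 29.4 CPM in the undifferentiated spermatogonia-like cells of CST and at 0 in those of UAT. HSPB9 was at 31.2 CPM in these cells of CST and at 2.01 CPM in those of UAT. Free RNA was estimated at 6.77% of the UMIs of these cells in CST and 5.49% in UAT. The spermatid transcript PRM1 stood at 1634 CPM and 0.251 CPM in them. Whether free RNA gave the levels of DNAJB8 and HSPB9 was not tested.

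The transcription factor HSF2 was at 348 CPM in early, 18.0 CPM in late spermatocyte-like and 127 CPM in round spermatid-like cells of CST. HSF5, a testis-enriched member of the same family, was at 34.7 CPM in early and 125 CPM in late spermatocyte-like cells. HSF1 was at 36.3 CPM in early, 195 CPM in late spermatocyte-like and 192 CPM in round spermatid-like cells, so the 3 factors did not share one course.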
